A study of Homo sapiens with 12 samples.

Results

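BAAT, SLC51A and SLC51B are 3 genes of bile acid handling in liver cells, and each was read in all 12 arrays of the study by 1 probe set. They are 3 of the 14884 genes tested, picked by name with earlier results of these data known. The arrays measured total RNA of HepG2, an established human liver tumour line that keeps many hepatocyte features, collected 120 h after an siRNA was given. Cells of every group carry, on 1 allele, a β-catenin gene without exon 3, and so make a truncated, degradation-resistant β-catenin beside the full-length protein. The 4 groups of 3 arrays each received sißCat-WT, directed at the full-length form; sißCat-mut, directed at the truncated form; sißCat-both, directed at both forms; or siCtrl, a control siRNA. All results come from this 1 line at 1 time, and whether the triplicates were separate cultures is not in the labels. The p-values therefore reflect no more than the variation among these arrays, and that variation may be technical.

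Hepatocytes make bile acids from cholesterol, link them to glycine or taurine, and send them into bile, from where the gut returns them to the liver. BAAT (bile acid-CoA:amino acid N-acyltransferase) is the enzyme of the linking step. SLC51A and SLC51B are the alpha and beta subunits of the organic solute transporter OSTα-OSTβ, which lets bile acids leave a cell across its basolateral membrane, and both subunits are needed for a working transporter. In liver both subunit genes are known targets of FXR, the nuclear receptor that senses bile acids. β-catenin is the transcriptional effector of Wnt signalling and also a part of cell junctions.

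All 3 genes were higher after the truncated form was targeted, alone or with the full-length form. They parted where the full-length form was targeted: SLC51A fell and SLC51B rose with sißCat-WT against siCtrl, and both subunit genes were lower with sißCat-both than with sißCat-mut. BAAT did not pass the test in either of those comparisons. With sißCat-WT it narrowly missed the threshold, in the direction of SLC51A (-0.47, limma adjusted p = 0.052). Differences between the genes were not tested. Levels below are log2 intensities, which say nothing of the amount of one gene beside another, and a difference is one group's mean log2 level less another's, given ± the fit's standard error. A gene was called at a limma adjusted p under 0.05 over all genes tested (Benjamini-Hochberg).

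The promoters of the 3 genes are shown because the genes rose together after sißCat-mut and because the subunit genes belong to 1 transporter. Each run is the 250 bases before an annotated start in RefSeq (GRCh38.p14), read 5′ to 3′ on the gene's strand, for SLC51A at chr3:196216284-196216533 (plus strand), SLC51B at chr15:65045137-65045386 (plus strand) and BAAT at chr9:101383565-101383814 (minus strand).
SLC51A: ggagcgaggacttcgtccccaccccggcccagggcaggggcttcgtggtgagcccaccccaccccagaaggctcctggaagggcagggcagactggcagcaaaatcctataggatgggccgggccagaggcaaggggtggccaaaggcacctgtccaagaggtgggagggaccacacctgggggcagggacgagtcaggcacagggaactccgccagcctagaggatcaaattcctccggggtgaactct
SLC51B: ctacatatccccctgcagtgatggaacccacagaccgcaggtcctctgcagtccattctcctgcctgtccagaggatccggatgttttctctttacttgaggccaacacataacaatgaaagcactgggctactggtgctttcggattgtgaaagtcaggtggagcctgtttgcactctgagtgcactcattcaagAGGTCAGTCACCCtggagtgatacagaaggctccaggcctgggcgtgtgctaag
BAAT: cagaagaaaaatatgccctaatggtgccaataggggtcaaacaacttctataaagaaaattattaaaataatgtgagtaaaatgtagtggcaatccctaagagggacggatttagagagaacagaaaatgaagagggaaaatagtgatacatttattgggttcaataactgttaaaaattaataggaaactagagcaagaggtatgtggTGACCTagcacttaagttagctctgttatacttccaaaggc
Capitals mark matches to 4 motifs that were searched on both strands. AGGTCA is the half-site of many nuclear receptors, the inverted repeat bound by FXR is AGGTCA followed after 1 base by TGACCT (2 mismatches were allowed, and it contains the half-site), CTTTGA is a core of the sites of TCF factors, through which β-catenin acts, and GTTAAT is a half-site of HNF1 factors. The SLC51B window held 1 half-site at 54 to 49 bases before the start, and this half-site was part of 1 match to the inverted repeat with 2 mismatches, AGGTCAGTCACCC, at 54 to 42 bases before the start. The half-site was present in 12.1% of the 35116 promoter windows of the table and the inverted repeat, under the same allowance, in 0.945%. The BAAT window shown held 1 half-site at 41 to 36 bases before the start, read as TGACCT on the gene's strand. The SLC51A window held no match to the 4 motifs, and neither did the window of a second annotated BAAT start. CTTTGA and GTTAAT, which occur in 11.2% and 6.23% of windows, were in none of the 4 windows. A match is a run of letters only, and a missing match says only that the letters are not in the window.

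Across genes, r was 0.994 to 0.997 between replicates and 0.966 to 0.994 between groups, and no array was the copy of another. The median over all probe sets lay between 4.71 and 4.78 on the 12 arrays. It is taken here as a stand-in for the floor of the arrays, near or under which changes may be compressed. No detection limit was computed. The gene that the siRNAs target was not analysed here, so the groups rest on the labels. The 6 measured hepatocyte markers of 9 listed (ALB, APOA1, APOB, TTR, TF and AFP) had group means from 9.34 to 13.53, and the labelled cell type thus had its markers. Markers of other cell types that were near the floor or under it in every group were DCN, CD163, SI, KDR, VWF and PECAM1. DCN (3.02 to 3.06) was the 1 measured of 4 stromal markers. The macrophage gene CD163 was at 3.17 to 3.53, while its list's CD14 was at 5.47 to 6.17 and CD68, a lysosomal protein, at 9.86 to 10.51. The intestinal gene SI was at 2.94 to 3.06, while its list's VIL1 was at 10.25 to 11.48, APOA4 at 6.74 to 8.41 and CDX2 at 5.81 to 6.03. The endothelial genes KDR, VWF and PECAM1 were at 3.51 to 4.76. The bile duct markers SPP1, SOX9, KRT19 and EPCAM had group means from 9.04 to 13.03, and KRT7 from 5.02 to 5.27.

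BAAT stood at 6.80, 6.34 and 6.52 with sißCat-WT, at 9.08, 9.28 and 9.07 with sißCat-mut, at 9.24, 9.79 and 9.39 with sißCat-both, and at 6.88, 7.07 and 7.14 with siCtrl. Every sißCat-mut and sißCat-both array was above every siCtrl array, as in 20% and 20.7% of all genes, and every sißCat-WT array was below them, as in 14.8%. The order of means was sißCat-both (9.47 ± 0.28, SD, n = 3), sißCat-mut (9.14 ± 0.12), siCtrl (7.03 ± 0.13) and sißCat-WT (6.56 ± 0.23). The ranges of sißCat-both and sißCat-mut overlapped, and the differences between these neighbours and between sißCat-WT and siCtrl did not pass the test.

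SLC51A stood at 4.75, 4.86 and 4.60 with sißCat-WT, at 7.14, 7.40 and 7.37 with sißCat-mut, at 6.43, 6.07 and 5.998 with sißCat-both, and at 5.49, 5.68 and 5.65 with siCtrl. No 2 of its 4 groups overlapped, as in 4.56% of all genes. The order of means was sißCat-mut (7.30 ± 0.14, SD, n = 3), sißCat-both (6.17 ± 0.23), siCtrl (5.61 ± 0.10) and sißCat-WT (4.74 ± 0.13), and each neighbour in it differed from the next by the test. The sißCat-WT level was at the median of all probe sets, so the size of any difference from it is uncertain and is given on the log2 scale only.

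SLC51B stood at 8.01, 7.86 and 8.05 with sißCat-WT, at 10.06, 10.08 and 9.64 with sißCat-mut, at 8.77, 8.20 and 8.52 with sißCat-both, and at 7.37, 7.48 and 7.34 with siCtrl. No 2 of its groups overlapped either, but here sißCat-WT was above siCtrl, as in 15.5% of all genes. The order of means was sißCat-mut (9.92 ± 0.25, SD, n = 3), sißCat-both (8.50 ± 0.28), sißCat-WT (7.97 ± 0.10) and siCtrl (7.40 ± 0.07), and each neighbour differed from the next by the test. The residual SD of the fit was 0.20 for BAAT, 0.16 for SLC51A and 0.20 for SLC51B, above the median of 0.12 over all genes.

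**Figure D1:**
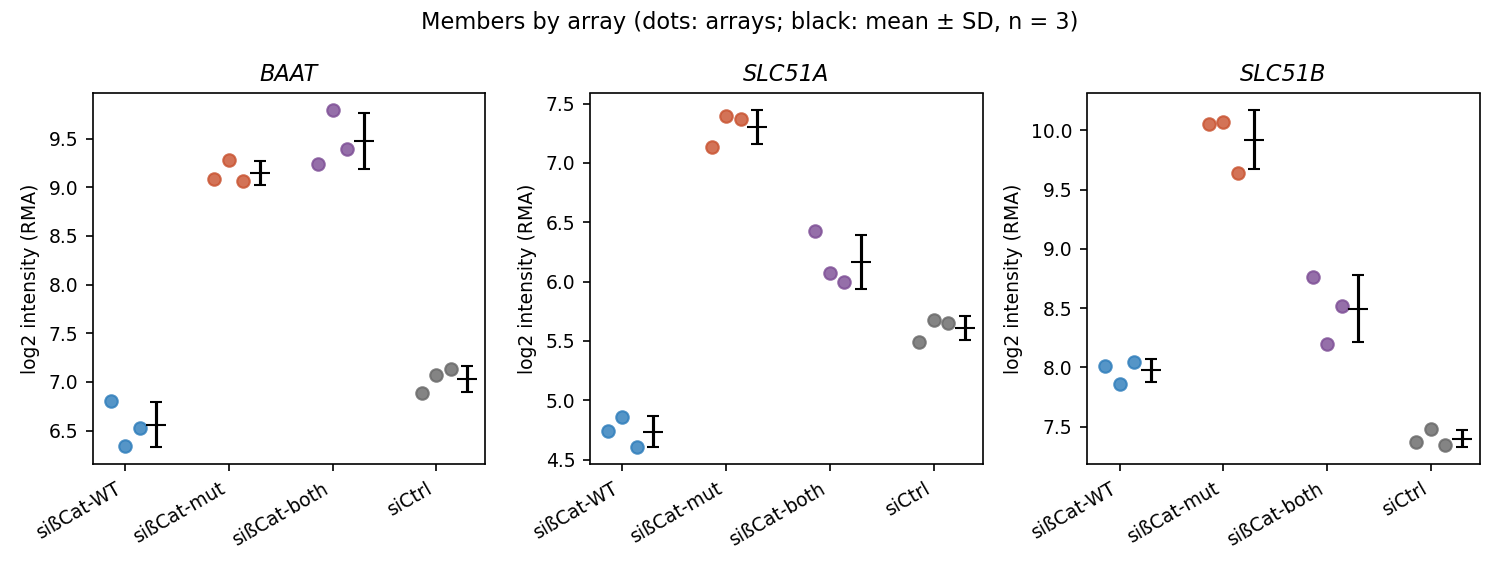
Log2 intensity of BAAT, SLC51A and SLC51B in each array (vertical axis, a scale of its own per gene) for sißCat-WT, sißCat-mut, sißCat-both and siCtrl, with the mean ± SD of 3 arrays in black. The sißCat-mut arrays of SLC51B lie between 9.64 and 10.08 and its siCtrl arrays between 7.34 and 7.48, while the sißCat-WT arrays lie below siCtrl for BAAT and SLC51A and above it for SLC51B.

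The comparison of sißCat-mut with siCtrl asks what the cells express once the truncated form is targeted. The enzyme gene BAAT rose by 2.11 ± 0.14 on the log2 scale, a 4.33-fold change with a 95% confidence interval of 3.50 to 5.35 (limma adjusted p = 2.51e-07). The transporter subunit SLC51A rose by 1.69 ± 0.12, or 3.24-fold (2.72 to 3.85, limma adjusted p = 2.74e-07). Its partner SLC51B rose by 2.52 ± 0.14, or 5.75-fold (4.68 to 7.07, limma adjusted p = 6.01e-08). All 3 were called higher, beside 12% of all genes tested. Among the 14884 genes ordered from the highest log2 difference down, SLC51B held rank 12, BAAT rank 20 and SLC51A rank 38. In a bulk culture more cells with a transcript and more transcript per cell cannot be told apart.

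With sißCat-both against siCtrl the 3 genes rose again, but by unlike amounts. BAAT was 5.44-fold higher (4.40 to 6.73), a log2 difference of 2.44 ± 0.14 (limma adjusted p = 4.01e-08). SLC51B was 2.14-fold higher (1.74 to 2.63), at 1.097 ± 0.14 (limma adjusted p = 3.09e-05). SLC51A was 1.47-fold higher (1.24 to 1.75), at 0.56 ± 0.12 (limma adjusted p = 0.00175). Of all genes tested, 15.5% were called higher in this comparison. The ranks from the highest difference down were 31 for BAAT, 225 for SLC51B and 921 for SLC51A. The comparisons with siCtrl share the same 3 control arrays.

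With sißCat-WT against siCtrl the transporter subunits moved in opposite directions. SLC51A fell by 0.87 ± 0.12 on the log2 scale (95% confidence interval -1.12 to -0.62, limma adjusted p = 0.00034), and 4.97% of all genes were called lower. SLC51B rose by 0.57 ± 0.14 (0.28 to 0.87), or 1.49-fold (limma adjusted p = 0.0171), and 5.2% of all genes were called higher. The call for SLC51B ended when siCtrl replicate 1 or 3 or sißCat-WT replicate 1 or 3 was left out (limma adjusted p = 0.0584, 0.0627, 0.0508 and 0.0705), with differences of 0.54 to 0.56 on the log2 scale. BAAT had a difference of -0.47 ± 0.14 (-0.78 to -0.17) that missed the threshold (limma adjusted p = 0.052), although its 3 sißCat-WT arrays were all below its 3 siCtrl arrays. Its adjusted p ranged from 0.0151 to 0.218 over the alternatives tried, and it was called when sißCat-WT replicate 1 or sißCat-both replicate 1 or 2 was left out (limma adjusted p = 0.0237, 0.0383 and 0.0217).

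**Figure D2:**
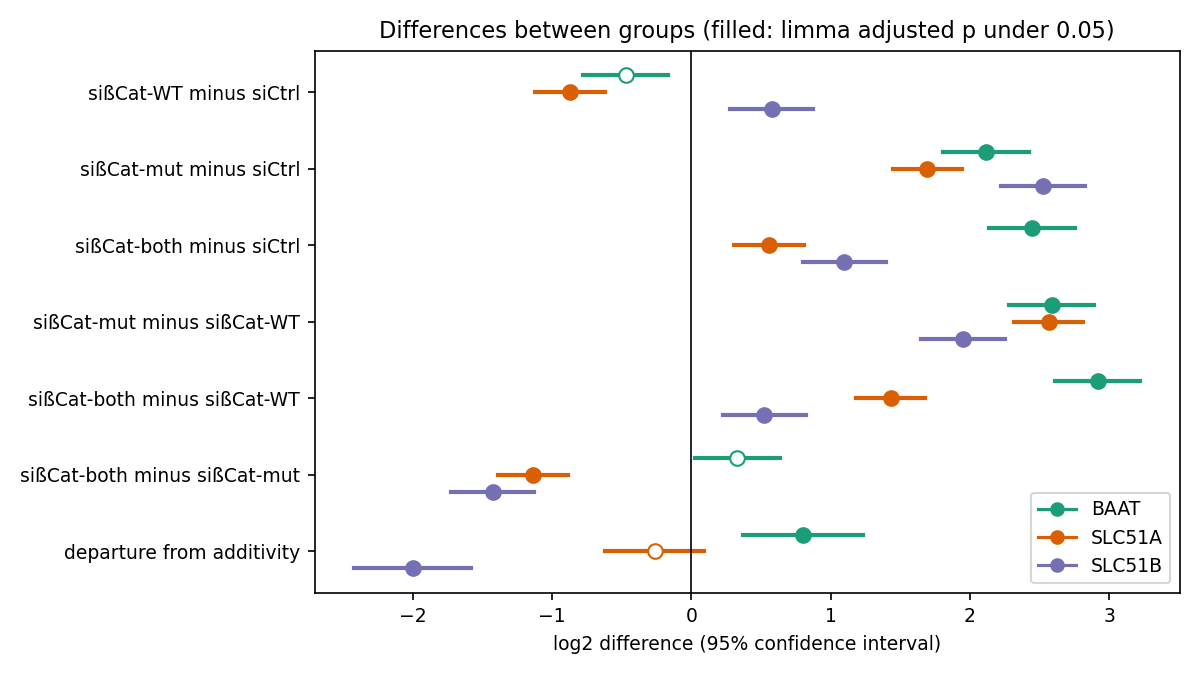
Log2 differences (horizontal axis) with 95% confidence intervals for BAAT, SLC51A and SLC51B in the 6 comparisons of groups and in the departure from additivity, with filled points at a limma adjusted p under 0.05. The 3 genes lie right of 0 for sißCat-mut and sißCat-both against siCtrl, and for sißCat-WT against siCtrl SLC51A lies at -0.87 and SLC51B at 0.57.

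Against sißCat-WT, sißCat-mut gave higher levels of each gene: BAAT by 2.59 ± 0.14 on the log2 scale, SLC51A by 2.56 ± 0.12 and SLC51B by 1.95 ± 0.14 (limma adjusted p = 1.57e-08, 4.06e-09 and 1.81e-07). In this comparison 14% of all genes were called higher. With sißCat-both against sißCat-WT, BAAT was higher by 2.92 ± 0.14, SLC51A by 1.43 ± 0.12 and SLC51B by 0.52 ± 0.14 (limma adjusted p = 5.11e-09, 4.26e-07 and 0.00821), beside 16.1% of all genes called higher.

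The comparison of sißCat-both with sißCat-mut shows the levels with the full-length form targeted as well as the truncated one. SLC51A was lower by 1.14 ± 0.12 on the log2 scale, or 2.20-fold (1.85 to 2.61, limma adjusted p = 1.42e-05). SLC51B was lower by 1.43 ± 0.14, or 2.69-fold (2.19 to 3.31, limma adjusted p = 9.51e-06), and 11.6% of all genes were called lower. Ordered from the lowest difference up, SLC51B held rank 39 and SLC51A rank 81 of 14884. BAAT had a difference of 0.33 ± 0.14 (0.02 to 0.64) that was not called (limma adjusted p = 0.122), and over the alternatives its adjusted p ranged from 0.046, without sißCat-both replicate 1, to 0.403.

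The departure from additivity is the difference of sißCat-both from siCtrl less the sum of the differences of sißCat-WT and sißCat-mut from siCtrl. It is 0 where the effects of targeting the forms singly add up on the log2 scale, and it presumes that sißCat-both lowers each form as far as the single siRNAs do, which was not measured here. For SLC51B the single differences sum to 3.10, the measured difference was 1.097, and the departure was -2.00 ± 0.20 (95% confidence interval -2.42 to -1.58, limma adjusted p = 2.08e-05). It held rank 22 from the lowest departure up, and 8.79% of all genes were called with a negative departure. For SLC51B, sißCat-both minus sißCat-mut was thus -1.43 and sißCat-WT minus siCtrl was 0.57. The groups compared received different siRNAs, so an effect of the siRNA itself cannot be told apart from that of the form it targets. For BAAT the single differences sum to 1.64, the measured difference was 2.44, and the departure was 0.80 ± 0.20 (0.37 to 1.24, limma adjusted p = 0.0148), beside 7.6% of all genes called with a positive departure. For SLC51A the sum was 0.82, the measured difference 0.56 and the departure -0.27 ± 0.16 (-0.62 to 0.09, limma adjusted p = 0.338), which was not called. For SLC51A, sißCat-both minus sißCat-mut was -1.14 and sißCat-WT minus siCtrl was -0.87, where the sißCat-WT level was near the array floor.

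**Figure D3:**
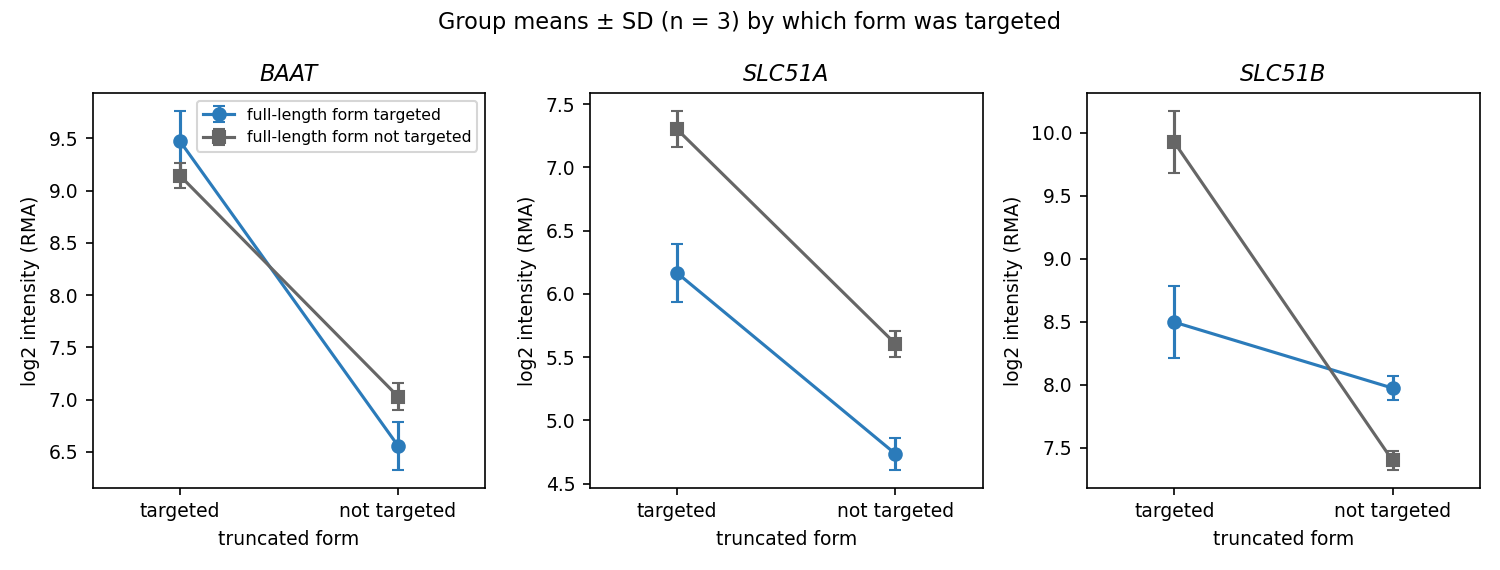
Mean log2 intensity ± SD of 3 arrays (vertical axis, a scale of its own per gene) by whether the truncated form was targeted (horizontal axis) and the full-length form was targeted (blue, sißCat-both and sißCat-WT) or not (grey, sißCat-mut and siCtrl). The lines are close to parallel for SLC51A (departure -0.27, not called) and cross for SLC51B (departure -2.00) and BAAT (0.80). For BAAT the gaps between the lines, -0.47 for sißCat-WT minus siCtrl and 0.33 for sißCat-both minus sißCat-mut, were not called.

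Other bile acid genes were taken from 6 lists of 77 genes in all, and 27 of them were measured. With sißCat-WT 1 of the 27 was called higher and 7 lower, with sißCat-mut 12 higher and 2 lower, and with sißCat-both 15 higher and 4 lower, each against siCtrl. Of all genes tested, 5.2%, 12% and 15.5% were called higher and 4.97%, 13.6% and 18.1% lower in these comparisons. In either direction the list calls were 29.6%, 51.9% and 70.4% of the measured list genes, beside 10.2%, 25.6% and 33.6% of all genes tested. The lists were chosen with earlier results of these data known, so these shares are a description and no test of bile acid genes as a set. The median log2 differences were -0.02, 0.28 and 0.27, beside 0.01, 0.01 and -0.01 over all genes. CYP7A1, ABCB11, NR1H4 and NR0B2, among others on the lists, were not analysed here.

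Of the synthesis enzymes 3 of 18 were measured. The peroxisomal enzyme HSD17B4, which works in the shortening of the bile acid side chain, fell by 0.52 with sißCat-WT and rose by 0.24 with sißCat-both (limma adjusted p = 0.000984 and 0.0348), and its difference was 0.01 with sißCat-mut. The peroxisomal thioesterase ACOT8 rose by 0.44 with sißCat-mut and by 0.72 with sißCat-both (limma adjusted p = 0.000511 and 4.75e-06). CH25H, a cholesterol hydroxylase, was at 3.18 to 3.39 in the 4 groups, under the array median, and was called in none of the comparisons with siCtrl. TMEM30A, a subunit of lipid flippases, was the measured one of 17 transporter genes and rose by 0.31 with sißCat-both (limma adjusted p = 0.0151). The 6 listed bile acid modifying enzymes were not analysed here.

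Of the regulators 9 of 20 were measured. With sißCat-WT 1 fell and none rose, with sißCat-mut 4 rose and none fell, and with sißCat-both 4 rose and 2 fell, with median log2 differences of 0.04, 0.18 and -0.09. Beside them, 5.2%, 12% and 15.5% of all genes were called higher and 4.97%, 13.6% and 18.1% lower. ONECUT1, a hepatocyte transcription factor, rose by 1.80 with sißCat-mut and 2.15 with sißCat-both (limma adjusted p = 7.19e-09 and 5.54e-10). PPARA, the nuclear receptor for fatty acids, fell by 0.60 with sißCat-WT and rose by 0.89 with sißCat-mut and 1.39 with sißCat-both (limma adjusted p = 0.00174, 2.09e-05 and 2.39e-07). KLB, the co-receptor for FGF19 signals that lower bile acid synthesis, rose by 0.67 with sißCat-mut and 1.01 with sißCat-both (limma adjusted p = 4.38e-05 and 7.33e-07). FGFR4, the receptor that KLB partners, fell by 0.75 with sißCat-both (limma adjusted p = 6.64e-06) and had differences of 0.11 with sißCat-WT and -0.17 with sißCat-mut that were not called (limma adjusted p = 0.494 and 0.148). It is named here after its values were seen. MAFG, known in mice as a repressor of bile acid synthesis genes, fell by 0.78 with sißCat-both (limma adjusted p = 0.000172).

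Of 12 other known FXR targets 10 were measured, most of them plasma protein or lipid genes. With sißCat-WT 1 rose and 4 fell, with sißCat-mut 6 rose and 2 fell, and with sißCat-both 7 rose and 2 fell, with median log2 differences of -0.19, 0.32 and 0.51. Beside them, 5.2%, 12% and 15.5% of all genes were called higher and 4.97%, 13.6% and 18.1% lower. KNG1 (kininogen) had the largest differences of the list, 3.88 with sißCat-mut and 4.76 with sißCat-both, and FETUB (fetuin B) followed at 3.34 and 4.67 (limma adjusted p = 1.27e-10, 8.39e-12, 1.41e-09 and 1.73e-11). A second KNG1 probe set lay between 6.19 and 6.40 in all 4 groups. VLDLR, a lipoprotein receptor, fell by 0.48 with sißCat-mut and rose by 1.30 with sißCat-both (limma adjusted p = 0.022 and 8.11e-06). The fibrinogen gene FGB fell by 0.41 with sißCat-WT and rose by 1.11 with sißCat-mut and 1.27 with sißCat-both (limma adjusted p = 0.0115, 1.54e-06 and 2.59e-07). INSIG2, a brake on sterol synthesis, fell by 0.45 with sißCat-mut and 1.23 with sißCat-both (limma adjusted p = 0.0334 and 1.47e-05). With sißCat-both against sißCat-mut, where SLC51A and SLC51B were lower, 3 of the 10 were called higher, 2 lower and 5 not, beside 10.6% of all genes called higher and 11.6% lower. FETUB and KNG1 were higher by 1.33 and 0.89 (limma adjusted p = 4.05e-06 and 4.69e-05). INSIG2 and the syndecan gene SDC1, both named after their values were seen, were lower by 0.78 and 0.30 (limma adjusted p = 0.00137 and 0.00894). The departure from additivity was called positive for 6 and negative for 1 of the 10, beside 7.6% and 8.79% of all genes. Among the positive ones were FETUB at 1.87 and KNG1 at 1.01 (limma adjusted p = 7.96e-06 and 0.00045).

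BAAT shares ancestry with the acyl-CoA thioesterases ACOT1, ACOT2, ACOT4 and ACOT6, and all 4 were measured. ACOT1, a cytosolic thioesterase, rose by 0.69 with sißCat-mut and 0.58 with sißCat-both (limma adjusted p = 0.00853 and 0.0181). ACOT2, its mitochondrial relative, fell by 0.65 with sißCat-WT (limma adjusted p = 0.0113). The 2 genes are near-identical copies whose probes may share signal, so their values are uncertain for the single gene. ACOT4 and ACOT6 stayed between 3.41 and 4.90, around the array floor or under it, and were not called against siCtrl.

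**Figure D4:**
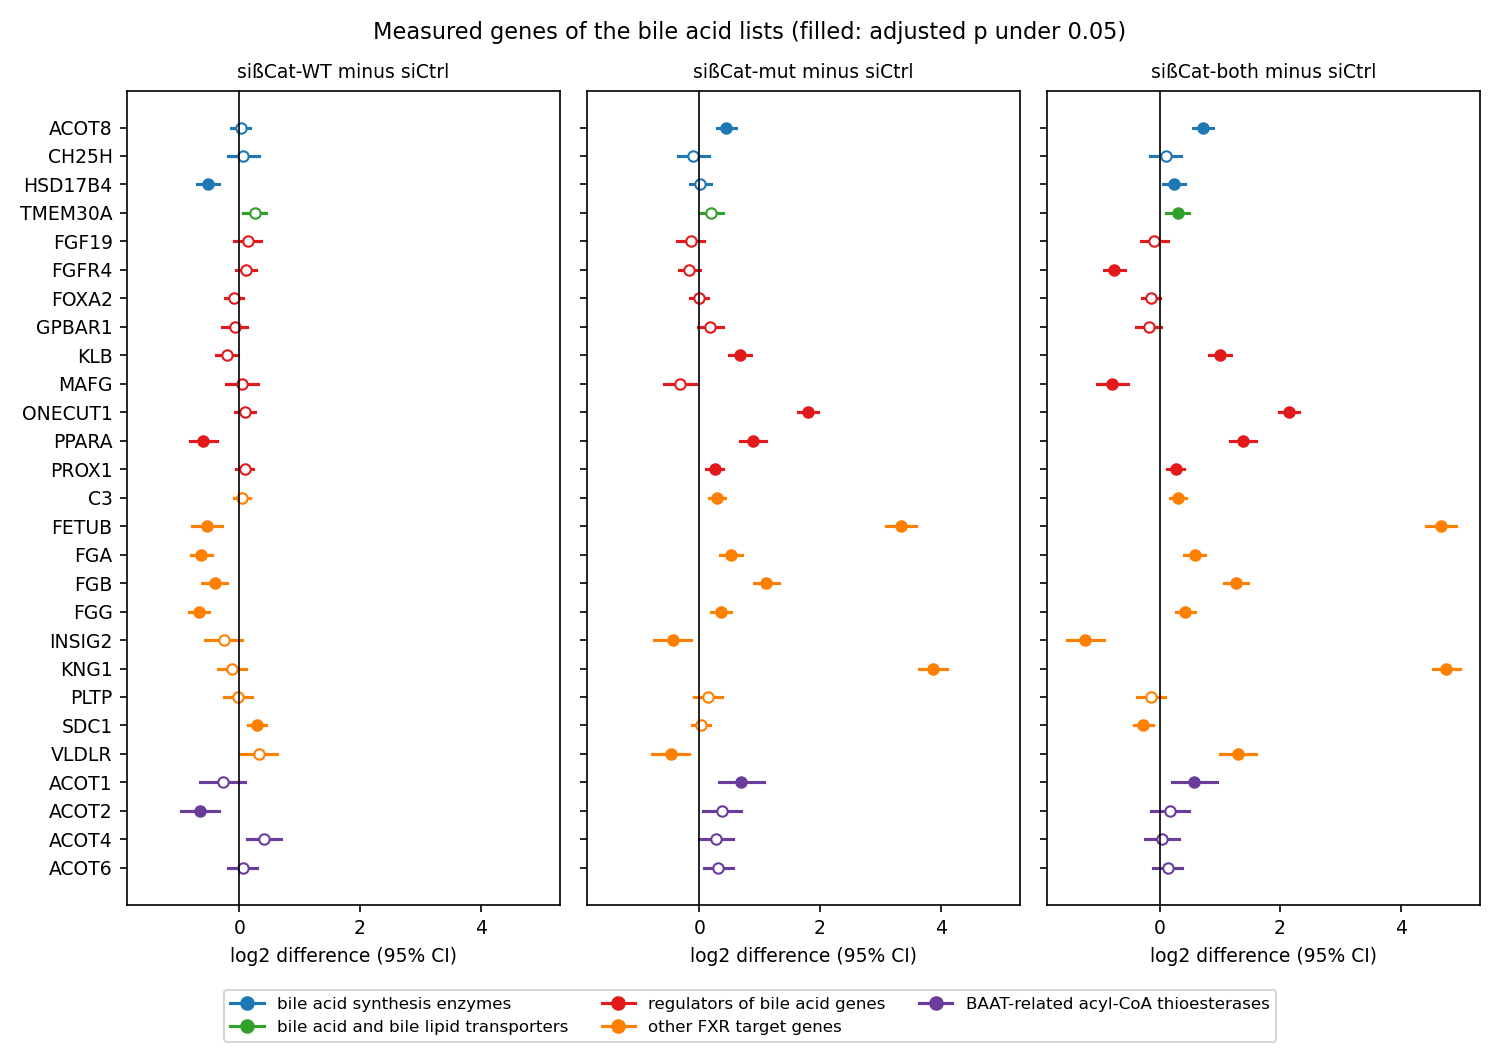
Log2 differences from siCtrl (horizontal axis) with 95% confidence intervals for the 27 measured list genes after sißCat-WT, sißCat-mut and sißCat-both, coloured by list and filled at a limma adjusted p under 0.05. FETUB, KNG1 and ONECUT1 lie farthest to the right after sißCat-mut (3.34, 3.88 and 1.80), and HSD17B4, PPARA, ACOT2, FETUB and the fibrinogen genes FGA, FGB and FGG are the filled points left of 0 after sißCat-WT.

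Some markers of cell types were also called in the comparisons with siCtrl, in patterns that differed between markers. All marker calls below stand beside 5.2%, 12% and 15.5% of all genes called higher with sißCat-WT, sißCat-mut and sißCat-both against siCtrl. Lower calls were made for 4.97%, 13.6% and 18.1% of all genes. Of the 6 hepatocyte markers none was called with sißCat-WT, 5 rose with sißCat-mut and 6 rose with sißCat-both, and the log2 of their summed intensity was 15.06 to 15.13 with sißCat-WT, 15.63 to 15.66 with sißCat-mut, 15.54 to 15.58 with sißCat-both and 15.17 to 15.23 with siCtrl. The largest of these differences was that of TTR, a thyroid hormone carrier, at 1.45 with sißCat-mut and 0.91 with sißCat-both (limma adjusted p = 1.35e-08 and 3.06e-07). Of 5 measured bile duct markers of 6 listed, SOX9, SPP1 and EPCAM fell with sißCat-mut and with sißCat-both and KRT19 rose and EPCAM fell with sißCat-WT. KRT7 was called in none of these comparisons. The log2 summed intensity of the 5 was 13.46 to 13.49 with sißCat-WT, 12.29 to 12.50 with sißCat-mut, 11.78 to 12.15 with sißCat-both and 13.20 to 13.28 with siCtrl. SPP1 weighs most in this sum, with means of 13.03, 11.65, 11.04 and 12.67 in the same order of groups.

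Enterocytes of the ileum also carry the SLC51 transporter, and 4 of 6 listed enterocyte markers were measured. VIL1 (villin, of the brush border) fell by 0.51 with sißCat-WT and rose by 0.72 with sißCat-mut (limma adjusted p = 0.000576 and 8.26e-06), and with sißCat-both it had a difference of -0.04 (0.726). APOA4 rose by 1.47 with sißCat-mut and with sißCat-both (limma adjusted p = 3.71e-06 and 2.08e-06). CDX2 and SI were called in none of the comparisons with siCtrl. The log2 summed intensity of the 4 was 10.40 to 10.53 with sißCat-WT, 11.64 to 11.71 with sißCat-mut, 10.999 to 11.10 with sißCat-both and 10.87 to 10.96 with siCtrl, and VIL1 weighs most in it, with means of 10.25, 11.48, 10.72 and 10.76.

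Of the macrophage markers 3 of 4 were measured: CD68 rose by 0.48 with sißCat-mut (limma adjusted p = 0.00343), CD14 by 0.50 with sißCat-WT and 0.70 with sißCat-both (limma adjusted p = 0.0151 and 0.000371), and CD163 by 0.31 with sißCat-both (limma adjusted p = 0.0151). Their log2 summed intensity, in which CD68 weighs most, was 9.85 to 10.08 with sißCat-WT, 10.35 to 10.73 with sißCat-mut, 10.30 to 10.53 with sißCat-both and 10.05 to 10.13 with siCtrl. Of the 3 endothelial markers VWF rose, by 0.33 with sißCat-mut and 0.37 with sißCat-both (limma adjusted p = 0.0236 and 0.00863), at levels under the array median, and the summed log2 intensity of the 3 was 5.59 to 5.84 with sißCat-WT, 5.86 to 6.10 with sißCat-mut, 5.90 to 6.08 with sißCat-both and 5.79 to 5.88 with siCtrl. The part of all these markers in the values of BAAT, SLC51A and SLC51B was not tested.

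The 30 measured solute carriers outside the mitochondrial SLC25 family, a grouping made by symbol after the values were seen, include SLC51A and SLC51B. The counts below hold the calls of these subunit genes too. Of the 30, 10 rose and 2 fell with sißCat-mut, beside 12% and 13.6% of all genes. SLC51B had the highest and SLC51A the next highest difference of the 30, beside a median of 0.05. With sißCat-both 10 rose and 3 fell, beside 15.5% and 18.1% of all genes, with SLC51B again first and SLC51A at rank 6. With sißCat-WT 3 rose and 5 fell, beside 5.2% and 4.97% of all genes, and SLC51B was at rank 2 from the top while SLC51A had the lowest value. SLC51B and SLC51A were the 2 lowest in sißCat-both against sißCat-mut, in which 3 of the 30 were called higher and 8 lower, beside 10.6% and 11.6% of all genes.

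**Figure D5:**
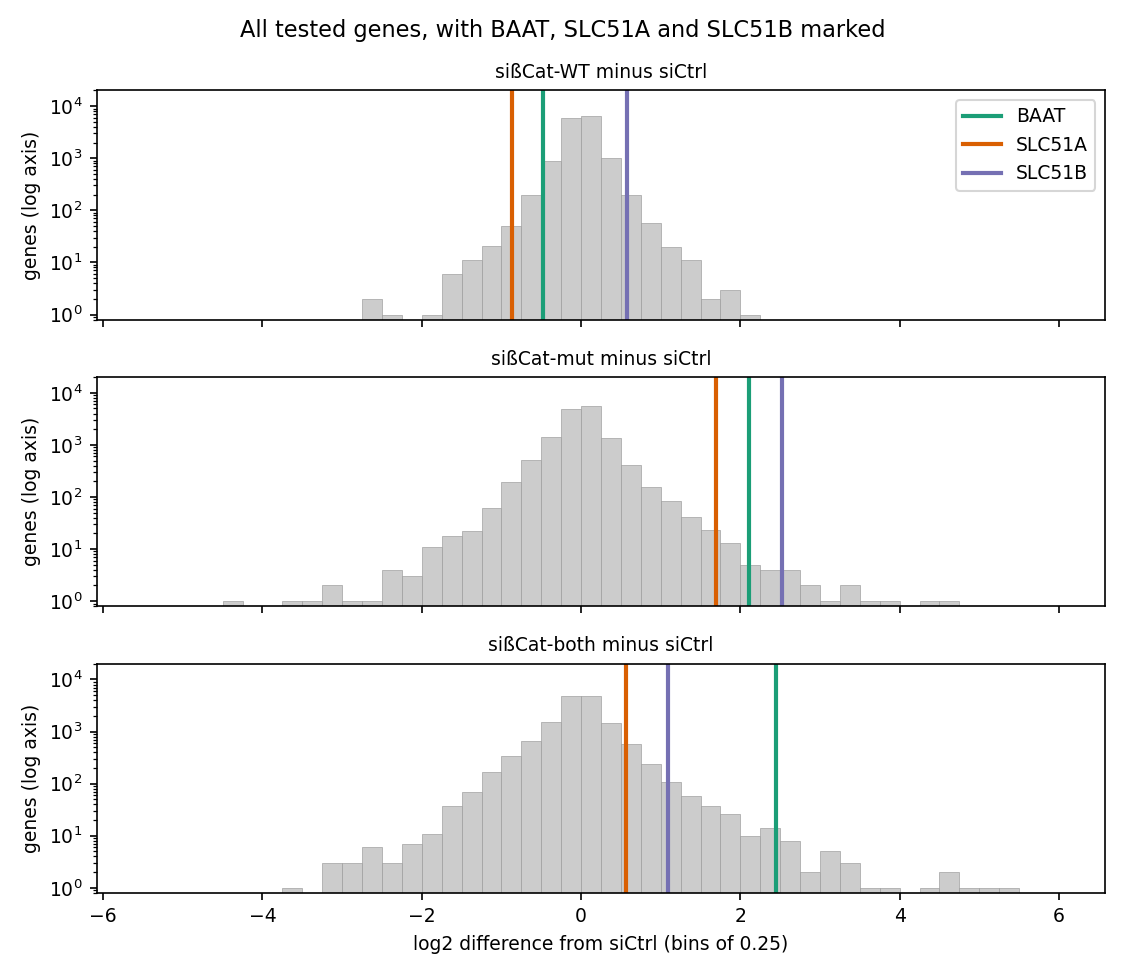
Number of genes (vertical log axis) by log2 difference from siCtrl in bins of 0.25 (horizontal axis) for sißCat-WT, sißCat-mut and sißCat-both over all 14884 genes, with lines at BAAT, SLC51A and SLC51B. The 3 lines stand in the right tail for sißCat-mut (1.69 to 2.52), and for sißCat-WT they stand on both sides of 0.

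Likeness of pattern was measured by Pearson's r of the log2 levels over the 12 arrays, among 1083 other genes whose group means spanned at least 1 on the log2 scale. The arrays fall into 4 groups, so r mainly describes the 4 group means and is given as a description. The genes most like BAAT were VTN (vitronectin, r = 0.989), LRRC28 (0.988), the complement gene C2 (0.987), HSD17B2, which inactivates sex steroids (0.987), and KNG1 by its brighter probe set (0.987). VTN, for example, had means of 10.68, 12.58, 12.66 and 11.25 with sißCat-WT, sißCat-mut, sißCat-both and siCtrl. Most like SLC51A were DCAF11 (0.985), the myosin gene MYO7A (0.983), ANKS4B (0.983), the apolipoprotein gene APOF (0.982) and CDS1, a phospholipid synthesis enzyme (0.980), and APOF had means of 6.35, 8.32, 7.52 and 6.95 in the same order of groups. Most like SLC51B were HID1 (0.968), the readthrough locus CCL15-CCL14 (0.961), the gastrin gene GAST (0.960), KIAA0513 (0.959) and the kinase gene SGK2 (0.948), and GAST had means of 6.26, 9.77, 8.11 and 6.19.

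Among the 3 genes themselves, SLC51A and SLC51B had r = 0.829 over the 12 arrays, BAAT and SLC51A 0.814, and BAAT and SLC51B 0.703. By this measure SLC51B stood at rank 171 in likeness to its partner SLC51A, SLC51A at rank 315 in likeness to BAAT, and SLC51B at rank 419 in likeness to BAAT.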

How the data were processed

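Total RNA of HepG2 cells was converted to biotinylated cDNA and read on Affymetrix arrays, as the labels' protocols state. The submitters' processing notes name RMA and Affymetrix Expression Console 1.1, and the authors deposited 1 log2 intensity for each of 53617 probe sets and each array. RMA corrects the background, equalises the distributions of the arrays and summarises the probes of a set, so a shift shared by most genes is removed. The log2 scale was read from the values, and the annotation build is not given in the sources used here. Depth does not apply to arrays, and 3 arrays per group limit the precision.

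Of the probe sets 16098 had 1 gene symbol in the platform's annotation, 0 had several and 37519 were unnamed. All 16098 gene identifiers matched the RefSeq table, with 0 symbols changed. The brightest probe set of each gene was kept, which gave 14884 genes. A limma 3.58.1 model (R 4.3.3) with 1 mean per group was fitted to the 12 arrays, with 8 residual degrees of freedom, and 7 contrasts were tested two-sided. The fit was tested on simulated data. The text names the 3 genes, up to 4 called genes per list with the largest differences, all measured genes of short lists, and the 5 genes most like each. FGFR4, INSIG2 and SDC1 are named beyond this rule, and FGA and FGG in a figure caption. The genes and lists were chosen with earlier results of these data known. Same-numbered arrays were compared by their deviations from group means. For sißCat-both against sißCat-WT the 3 correlations were 0.115, 0.155 and 0.134, all above the limit set for pairing. They are low and lie near the 0.095, 0.058 and 0.118 of sißCat-mut against sißCat-WT. The labels give no pairing, so whether the arrays were paired is not known. Figures were drawn with matplotlib 3.10.9.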

Additional observations from a re-analysis of the deposited data

Results flagged for a closer look

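The departure from additivity tests whether the difference between groups with and without the truncated form targeted depended on the full-length form being targeted too. It was called for SLC51B (-2.00, limma adjusted p = 2.08e-05) and for BAAT (0.802, limma adjusted p = 0.0148). The groups received different siRNAs, so an effect of the siRNA itself cannot be told apart from that of the form. For SLC51B, sißCat-both minus sißCat-WT was 0.52 and sißCat-mut minus siCtrl was 2.52. For BAAT these differences were 2.92 and 2.11.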

How the results depend on the processing

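Of the 21 differences of BAAT, SLC51A and SLC51B, 18 kept their direction and their side of the threshold under every alternative run for them: renewed quantile normalization, median centring, no dim genes (below percentile 40 by mean level), probe sets of a gene averaged, a trended or a robust prior, a fit on only the groups compared (not made for the departures from additivity, which need all groups), the replicate block, array weights and each array left out. None changed sign. BAAT with sißCat-WT against siCtrl, not called with all settings as reported, was called with median centring (-0.473, limma adjusted p = 0.0482), without dim genes (-0.472, 0.0297), with a trended prior (-0.472, 0.0274), with only the groups compared (-0.472, 0.0397) and with array weights (-0.498, 0.0151), and its value ranged from -0.595 to -0.365 with 1 array left out. SLC51B in that comparison ranged from 0.539 to 0.630 with 1 array left out, and BAAT in sißCat-both against sißCat-mut from 0.172 to 0.447, called without sißCat-both replicate 1. The cause was not tested. The number of genes called with sißCat-WT against siCtrl, 1513, ranged from 917 (without sißCat-WT replicate 2) to 1616 with 1 array left out, and was 950 without siCtrl replicate 2 and 957 without sißCat-WT replicate 3. The replicate block changed no call of BAAT, SLC51A or SLC51B and gave 9 list genes called with sißCat-WT, against 8 without it, and 16 with sißCat-mut, against 14. With the block, BAAT, SLC51A and SLC51B kept differences of 2.92, 1.43 and 0.52 in sißCat-both against sißCat-WT (limma adjusted p = 9.22e-08, 3.01e-06 and 0.00957). In this comparison 5623 genes were called with the block against 5383 without. The labels give no pairing.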
